A study of Drosophila melanogaster with 12 samples.

Results

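Females of Drosophila melanogaster reared on the outer diets of the 4 that were sequenced, with P:C ratios (protein to carbohydrate) of 0.25 and 0.70, were set against females reared on the diets between them, with ratios of 0.40 and 0.55. All 12 samples of the series enter this contrast, 6 from the extreme diets and 6 from the middle diets, with 3 samples per diet. It is the mean of both extreme diets minus the mean of both middle diets in a fit with the 4 diets as groups, and it asks which functions peak or dip at balanced diets and which follow a steady trend. Flies of every group came from the same large outbred population, kept on the 0.40 diet, and the diets held the same calories while sugar was exchanged for yeast. A diet with still less protein, also used in the study, is not analysed here, so the 0.25 diet is extreme among the sequenced diets only. Each sample was RNA of 12 pooled whole females frozen on day 13 after egg collection, so a pool averages over individuals and over all organs. Samples of the extreme diets totalled 6094226 to 13245114 counts, against 6206520 to 9015885 for the middle diets. The lowest level taken as detected, 3 counts of a total, corresponded to 0.226 to 0.492 CPM, which are counts per library size with each library scaled alike, a limit that covers counting error only. Yolk protein transcripts were among the most abundant, and of 82 transcripts in a male accessory gland and testis list 3 passed the filter on low counts, Mst85C and the cuticle proteins Acp65Aa and Acp1.

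Egg production in the fly ties diet to transcription in several organs. The fat body and the follicle cells make yolk proteins, the follicle cells then lay down the vitelline membrane and the chorion of the eggshell, and all of these products leave the cell through the endoplasmic reticulum (ER) and the Golgi apparatus. The gut secretes proteases and lipases, and odorant-binding proteins carry hydrophobic odorants in the fluid of olfactory hairs, although several are made elsewhere in the body.

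No transcript passed the test of the contrast. Of 9928 tested transcripts, 0 had a Benjamini-Hochberg adjusted p under 0.05 (0%, edgeR's quasi-likelihood test), and the smallest adjusted p was 0.0557, shared by 5 transcripts. At an unadjusted p under 0.05 there were 962 transcripts (9.69%), of which 592 lay lower (5.96%) and 370 higher (3.73%) in the extreme diets. DESeq2's Wald test called 52 of 12704 transcripts at an adjusted p under 0.05 (0.409%), 40 of them lower in the extreme diets (0.315%) and 12 higher (0.0945%). With scaling by library size alone the split turned, to 376 lower and 587 higher at an unadjusted p under 0.05. The median standard error of the log2 difference was 0.09. The steady trend was far more common, since 3835 transcripts (38.6%) passed the test of the linear term, 1765 rising (17.8%) and 2070 falling (20.9%) with the P:C ratio. Of all variance in log2 CPM, the linear term held 34.5%, the contrast of extremes with middles 8.13%, the third-order term 9.83%, and differences between samples of a diet 47.5%. The transcripts named from here on were therefore chosen after their values were seen, except the 2 members with the highest level in each list.

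A peak or a dip requires that both ends of the diet range differ from the middle in the same direction. Each end was therefore also compared with the mean of the middle diets, and these 2 comparisons, called arms here, share the 6 middle samples. Both arms had an unadjusted p under 0.05 and the same direction in 62 transcripts that lay lower (0.624%) and in 17 that lay higher (0.171%) at the extremes, and no transcript had both arms under an adjusted p of 0.05. Of the 62 and the 17 transcripts, 1 and 5 also passed the test of the linear term. The 52 transcripts called by DESeq2 include 21 of the 62 and 5 of the 17. In most of the 962 transcripts a single arm had an unadjusted p under 0.05. This was the 0.70 arm in 352 lower and 249 higher transcripts, and the 0.25 arm in 120 lower and 88 higher. All 6 extreme samples lay below all 6 middle samples in 24 transcripts (0.242%) and above them in 6 (0.0604%).

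Eggshell transcripts lay lower at both ends than in the middle diets, although no member passed the adjusted threshold. All 31 tested members, of 32 in the table, had a negative difference, as did 48.9% of all tested transcripts. Of these members 10 had an unadjusted p under 0.05, all lower at the extremes (32.3%, against 5.96% of all tested transcripts). In both arms 8 were lower at that threshold, against 0.624% of all tested transcripts. The median log2 difference of the list was -0.34, against 0.00 for all tested transcripts, with medians of -0.29 in the 0.25 arm and -0.40 in the 0.70 arm. No member passed the test of the linear term. DESeq2 called 5 members, Vm26Ab, ndl, Vm26Aa, psd and Vm34Ca. Fewer follicle cells at the right stage and less RNA per cell cannot be told apart in whole flies.

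Several vitelline membrane transcripts were among the members with the smallest p, although another, Vm26Ac, had the difference nearest 0 of the list (-0.11). Vm26Ab, a structural protein of that membrane (dm6, chromosome arm 2L, 5957004 to 5957639), had 669, 514 and 637 CPM at a ratio of 0.25, 876, 645 and 795 CPM at 0.40, 952, 806 and 901 CPM at 0.55, and 605, 558 and 621 CPM at 0.70. The extreme samples overlapped the middle ones only through the highest sample at 0.25 and the lowest at 0.40. The log2 difference was -0.46 (SE 0.08, 95% interval -0.64 to -0.28, edgeR adjusted p = 0.126). Nudel (ndl), a protease made by follicle cells and needed for embryonic polarity and eggshell crosslinking, had 148, 112 and 124 CPM at 0.25, 217, 133 and 175 CPM at 0.40, 219, 187 and 152 CPM at 0.55, and 96.1, 101 and 122 CPM at 0.70. Its log2 difference was the most negative of the list, -0.63 (SE 0.12, edgeR adjusted p = 0.160), and its transcript overlaps another in the table. Vm26Aa, Vm34Ca and psd, also vitelline membrane proteins, differed by -0.42, -0.42 and -0.50 on the log2 scale, and Vml by -0.51.

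**Figure D1:**
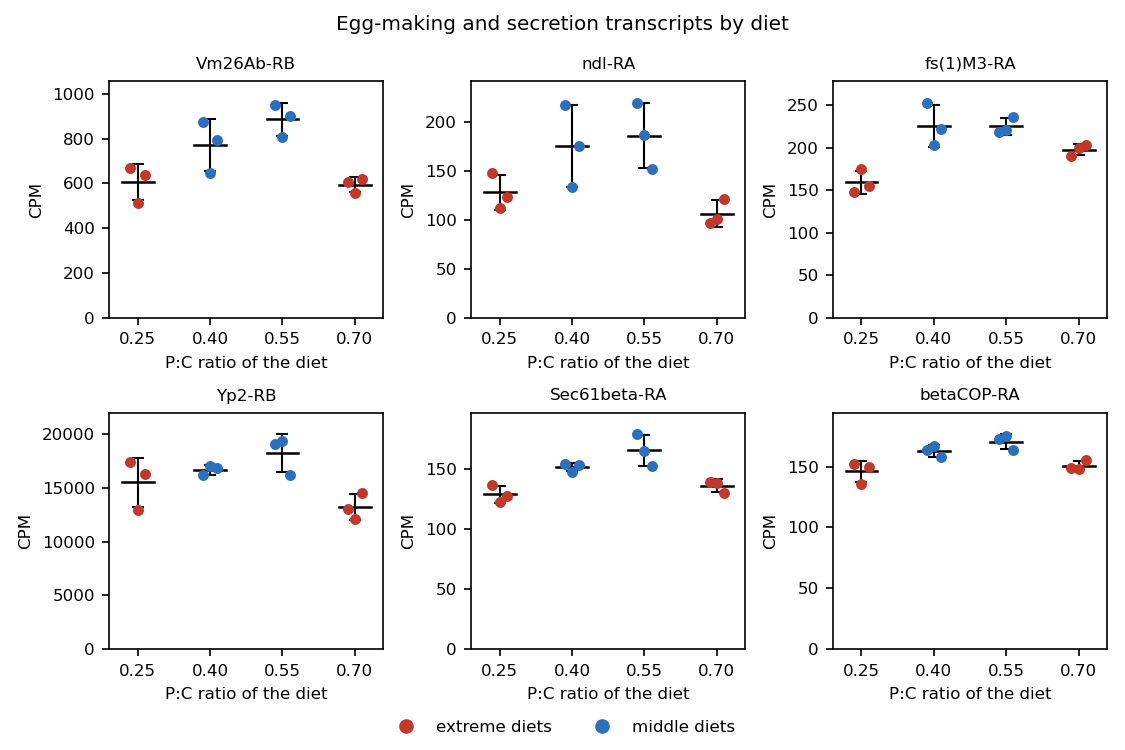
CPM of 6 transcripts of egg making and secretion against the P:C ratio of the diet, with 1 point per sample (red, extreme diets; blue, middle diets) and bars for the mean and SD of 3 samples. For Vm26Ab the diet means were 607 CPM at 0.25 and 595 CPM at 0.70, against 772 CPM at 0.40 and 886 CPM at 0.55.

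Chorion transcripts, which are made later in egg formation, pointed the same way with much wider errors. Cp38, the most abundant member, had a log2 difference of -0.30 (SE 0.26) and Cp15 of -0.19 (SE 0.14), with edgeR adjusted p of 0.718 and 0.668. Summed over the list, the samples held 22189, 13270 and 17056 CPM at 0.25, 24620, 17162 and 22327 CPM at 0.40, 23054, 22617 and 15485 CPM at 0.55, and 14314, 14186 and 19789 CPM at 0.70. The sums of extreme and middle samples overlapped, since sample 1 at 0.25 was high and sample 3 at 0.55 low. Within diets lay 76.7% of the variance of the list, and of the part between diets 76.0% fell on the contrast of extremes with middles. Left out in turn, these samples moved the count of members with an unadjusted p under 0.05 by at least 1.5-fold. It was 17 without sample 1 at 0.25 and 15 without sample 3 at 0.55.

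**Figure D2:**
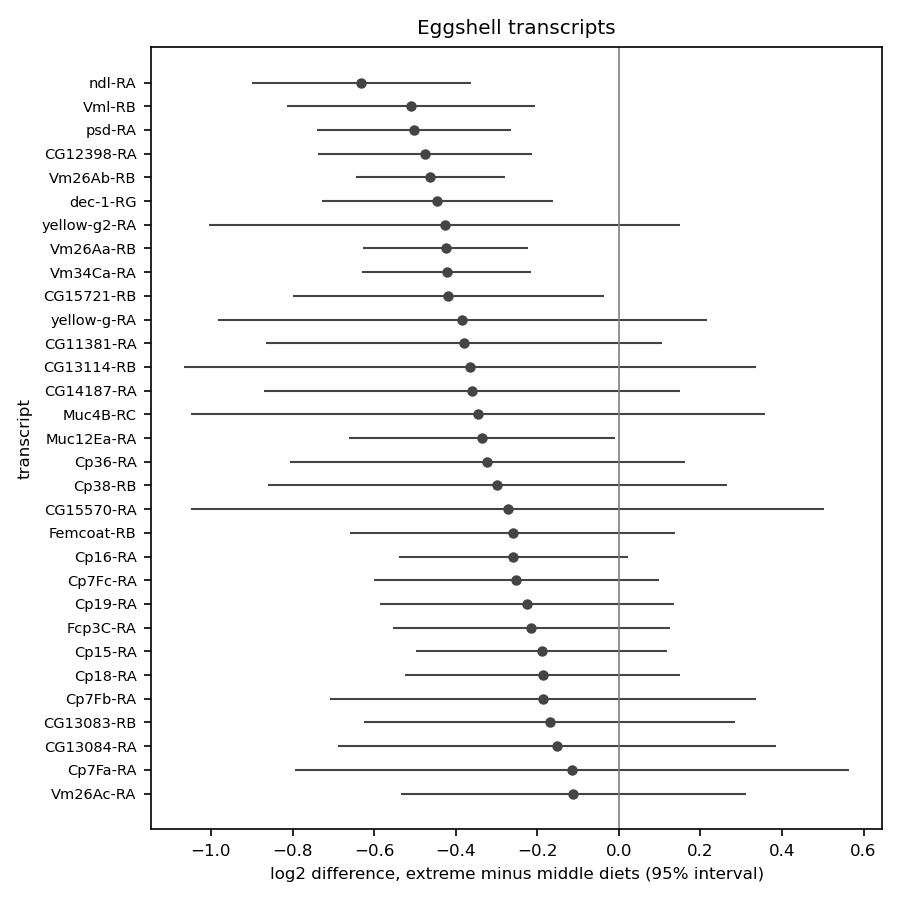
Log2 difference (extreme minus middle diets) of the 31 tested eggshell transcripts, with 95% intervals, ordered from the most negative. All points lie below 0, between -0.63 for ndl and -0.11 for Vm26Ac, and the intervals of 10 members exclude 0.

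Some other transcripts of the egg also lay lower at the extremes, the yolk proteins more clearly at 0.70 than at 0.25. The yolk proteins Yp1, Yp2 and Yp3, taken up by the oocyte from the haemolymph, differed by -0.24, -0.28 and -0.24 on the log2 scale, and all 3 had an unadjusted p under 0.05. Yp2 had 17356, 12970 and 16248 CPM at 0.25, 16150, 17016 and 16888 CPM at 0.40, 19036, 19388 and 16174 CPM at 0.55, and 13032, 12126 and 14512 CPM at 0.70. Only the samples at 0.70 all lay below the middle diets. For Yp1, Yp2 and Yp3 the 0.25 arm had -0.15, -0.17 and -0.21, with edgeR unadjusted p of 0.159, 0.097 and 0.053. The 0.70 arm had -0.32, -0.40 and -0.27, each with an unadjusted p under 0.05. The germline genes fs(1)M3 and fs(1)N, which encode eggshell proteins that also act in terminal patterning of the embryo, had non-overlapping samples. For fs(1)M3 (chromosome X, 5958207 to 5964247) the extreme samples had 148 to 203 CPM, against 204 to 253 CPM in the middle samples, a log2 difference of -0.35 (SE 0.06, edgeR adjusted p = 0.125). For fs(1)N the extreme samples had 154 to 190.1 CPM, against 190.4 to 233 CPM in the middle samples, and the log2 difference was -0.26 (SE 0.05). In the germline list, which includes both, 8 of 45 tested members had an unadjusted p under 0.05, all lower at the extremes. These were 17.8%, against 5.96% of all tested transcripts. The median difference was 0.01, with medians of -0.20 in the 0.25 arm and 0.22 in the 0.70 arm, and 34 members rose along the diets in the linear test.

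The machinery that moves proteins through the ER and the Golgi apparatus also lay lower at the extremes, by small amounts. These lists were drawn up after the values were seen. Of 37 transcripts for the translocon, glycosylation and ER folding, 34 had a negative difference and 13 an unadjusted p under 0.05, all lower, with a median of -0.08. These were 91.9% and 35.1% of the list, against 48.9% and 5.96% of all tested transcripts. Scaling by library size alone reduced these 13 to 7. Sec61beta, a subunit of the channel through which proteins enter the ER, had 137, 123 and 127 CPM at 0.25, 154, 148 and 154 CPM at 0.40, 179, 165 and 153 CPM at 0.55, and 139, 139 and 130 CPM at 0.70. All 6 extreme samples lay below the middle samples, with a log2 difference of -0.26 (SE 0.05, edgeR adjusted p = 0.138). The same separation held for the channel's main subunit Sec61alpha (-0.19), the signal peptide peptidase Spp (-0.20) and the disulphide isomerase Pdi (-0.16). Over all tested transcripts 0.242% had this separation. DESeq2 called 5 members of this list as lower, against 0.315% of all the transcripts it tested. OstStt3, a catalytic subunit of oligosaccharyltransferase, differed by -0.25. The most abundant member, the ER chaperone Hsc70-3, differed by -0.07 (SE 0.07).

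Of 27 transcripts for the COPI and COPII coats, which shape vesicles between the ER and the Golgi apparatus, 25 had a negative difference and 9 an unadjusted p under 0.05, all lower, with a median of -0.08. These were 92.6% and 33.3% of the list, against 48.9% and 5.96% of all tested transcripts. Without sample 1 at 0.25 the count of 9 was 5, and with scaling by library size alone it was 3. The samples of betaCOP did not overlap, with 136 to 155 CPM at the extremes and 158 to 175 CPM in the middle diets. The difference was -0.17 (SE 0.04) on the log2 scale. Arf79F and Sar1, the most abundant members and the GTPases that start coat assembly, differed by -0.08 and -0.09.

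Some haemocyte and fat body transcripts lay lower at both ends, but the medians of their lists did so at 0.70 and were near 0 at 0.25. In a haemocyte list, also drawn up afterwards, 17 of 20 tested members had a negative difference and 5 an unadjusted p under 0.05, all lower. Over all tested transcripts 48.9% were negative, and 5.96% lay lower at that threshold. The list median was -0.01 in the 0.25 arm and -0.24 in the 0.70 arm. Both arms were negative in 10 members (50%, against 16.7% of all tested transcripts). PPO1 and PPO2 lay lower mainly at the other end, with -0.58 and -0.38 in the 0.25 arm and -0.11 and -0.17 in the 0.70 arm. Hemolectin (Hml), a clotting protein of haemocytes, had 73.2 to 111 CPM at the extremes and 103 to 138 CPM in the middle diets, and the phagocytosis receptor NimC1 had 17.2 to 20.7 CPM and 20.4 to 26.9 CPM. Their log2 differences were -0.34 (SE 0.10) and -0.33 (SE 0.08). Rfabg, the apolipoprotein of the main lipid carrier in haemolymph, differed by -0.34 (SE 0.10) and was the member of the hexamerin and fat body list with both arms lower at an unadjusted p under 0.05. The lipid transfer particle protein Apoltp had 0.12 in the 0.25 arm and -0.74 in the 0.70 arm, and the lipid droplet protein Lsd-1 had 0.06 and -0.71. The part of haemocyte number in these differences was not tested.

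Several odorant-binding proteins lay higher at the extremes, mostly through the 0.25 diet. Of 29 tested members, 11 had an unadjusted p under 0.05 and lay higher, and 2 lay lower, and DESeq2 called 5 as higher. The 11 and the 2 were 37.9% and 6.90% of the list, against 3.73% and 5.96% of all tested transcripts. Os-C, made in the antenna (chromosome arm 3R, 7978959 to 7979614), had 5.62, 9.08 and 10.5 CPM at 0.25, 1.42, 1.64 and 1.02 CPM at 0.40, 0.631, 1.25 and 1.12 CPM at 0.55, and 3.28, 1.36 and 2.37 CPM at 0.70. The samples at 0.70 lay between those at 0.25 and the middle diets and overlapped the middle diets. Its log2 difference was 1.90 (SE 0.29, edgeR adjusted p = 0.0557), made up of 2.87 in the 0.25 arm and 0.94 in the 0.70 arm. The chemosensory protein a10 had a similar form, with a log2 difference of 1.81 (SE 0.27), 2.84 in the 0.25 arm and 0.78 in the 0.70 arm. All extreme samples of Obp19a, 0.568 to 5.47 CPM, lay above the middle samples, which at 0 to 0.564 CPM were near the detection limit. So was the lowest extreme sample, which nearly equalled the highest middle sample. With middle samples this low, Obp19a passed the filter on low counts only through extreme samples, so its direction was set in advance. The same held for Os-C, since too few of its middle samples reached the level of the filter. The count of 11 was not cleared of such members. Os-C, a10 and Obp19a also fell along the diets in the linear test (edgeR adjusted p = 0.0018 for Os-C). The most abundant members differed in other ways, Obp99c by -0.07 and Obp99a by -0.34. The list median was 0.14. With at least 10 counts required in every sample the median was -0.03, and 3 members lay higher at an unadjusted p under 0.05.

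**Figure D3:**
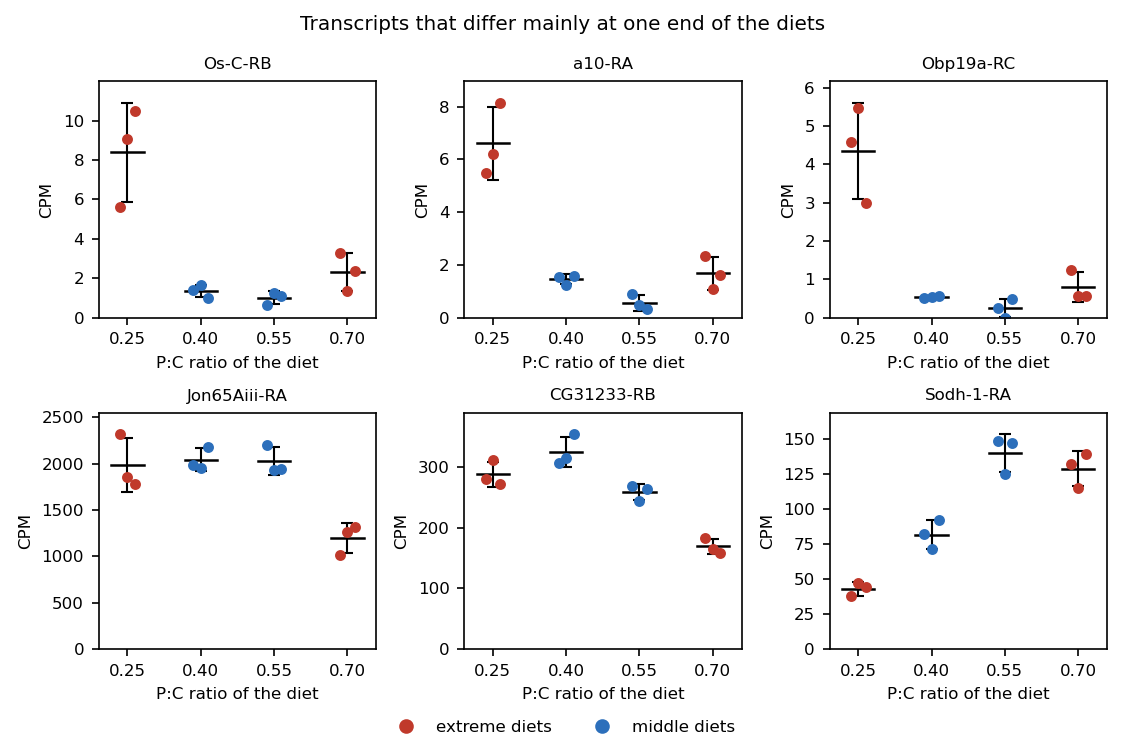
CPM of 6 transcripts against the P:C ratio of the diet, with 1 point per sample (red, extreme diets; blue, middle diets) and bars for the mean and SD of 3 samples. Os-C, a10 and Obp19a were high at 0.25, Jon65Aiii and CG31233 were low at 0.70 and Sodh-1 was low at 0.25.

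Gut proteases lay lower at the 0.70 end. Of 43 tested members, 39 had a negative difference and 14 an unadjusted p under 0.05 and lay lower, with a median of -0.17. These were 90.7% and 32.6% of the list, against 48.9% and 5.96% of all tested transcripts. The median was 0.16 in the 0.25 arm and -0.52 in the 0.70 arm, and 26 members fell along the diets in the linear test. Jon65Aiii, a serine protease of the midgut, had 2316, 1861 and 1779 CPM at 0.25, 1990, 1957 and 2185 CPM at 0.40, 2205, 1932 and 1946 CPM at 0.55, and 1011, 1266 and 1322 CPM at 0.70. The samples at 0.25 covered the range of the middle diets, and every sample at 0.70 lay below it. DESeq2 called 3 members as lower. Jon99Cii and Jon65Aiv, the most abundant members, differed by -0.18 and -0.33. The count of 14 was sensitive to single samples. It was 5 without sample 2 or sample 3 at 0.25, sample 3 at 0.40, sample 1 at 0.55 or sample 1 at 0.70, and 9 without sample 3 at 0.55.

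Several of the transcripts nearest the threshold were also of this kind. CG31233 (3R, 21749853 to 21753237) differed by -0.40 (SE 0.06), with -0.01 in the 0.25 arm and -0.78 in the 0.70 arm. Sodh-1, a sorbitol dehydrogenase, differed by -0.52 (SE 0.08), with -1.31 in the 0.25 arm and 0.26 in the 0.70 arm. CG34148 differed by -0.43 (SE 0.07), with -0.85 and -0.02. For these 3 the larger arm carried most of the difference.

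DNA replication and cell cycle transcripts formed the opposite case. Of 46 tested members, 45 had a positive difference, as did 51.1% of all tested transcripts, with a median of 0.14. An unadjusted p under 0.05 was seen in 6 members, all higher (13.0%, against 3.73% of all tested transcripts). The 0.70 arm had a median of 0.40 and the 0.25 arm of -0.10, and 38 members rose in the linear test. The kinase polo and the ribonucleotide reductase subunit RnrL, the most abundant, differed by 0.01 and 0.07. The count of 6 varied between 0 and 16 when samples were left out in turn. It was 0 without sample 2 or 3 at 0.25, sample 3 at 0.40, sample 1 at 0.55 or sample 2 at 0.70, 1 without sample 1 at 0.40 or 0.70, and 12, 12, 16 and 13 without sample 1 at 0.25, sample 2 at 0.40, sample 3 at 0.55 and sample 3 at 0.70.

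**Figure D4:**
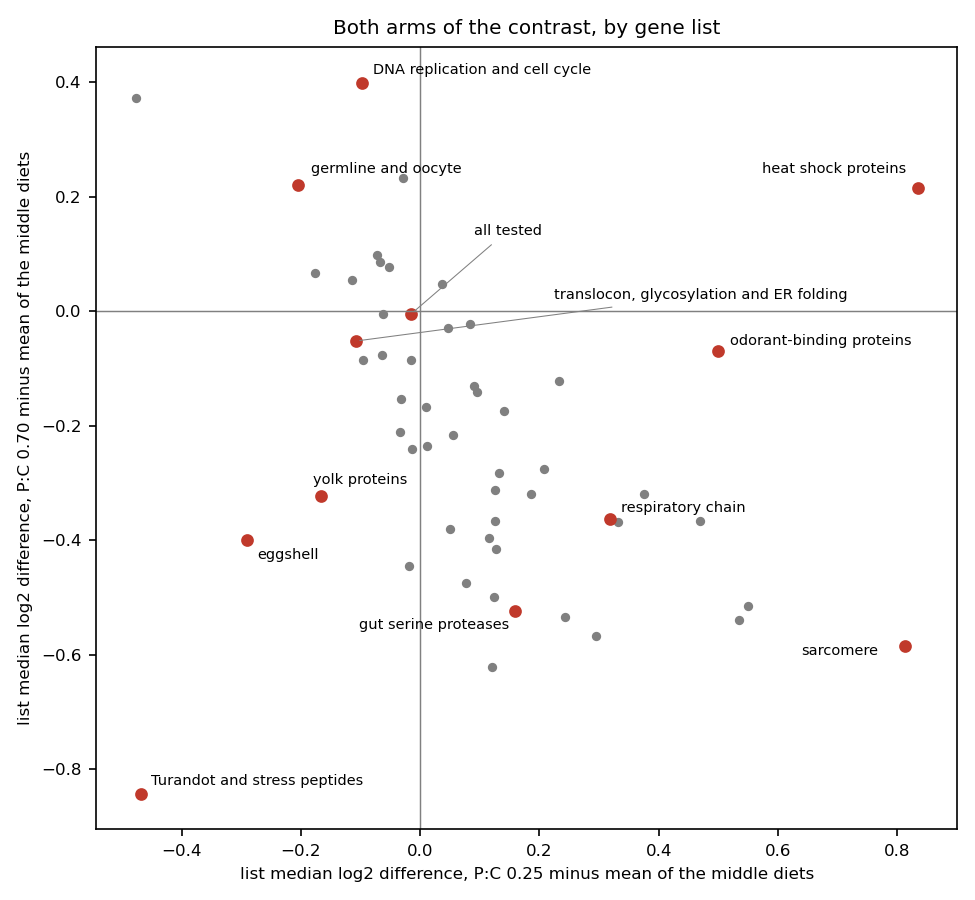
Median log2 difference of each gene list in the 0.25 arm (horizontal) and the 0.70 arm (vertical), both against the mean of the middle diets, with chosen lists in red and all others in grey. Lists in the lower left, such as eggshell at -0.29 and -0.40, lay lower at both ends, while lists in the lower right, such as sarcomere at 0.81 and -0.59, followed the trend. The male accessory gland and testis list is not plotted, since Acp65Aa and Acp1, 2 of its 3 tested members, are cuticle proteins.

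Muscle, eye and mitochondrial transcripts showed what a steady trend looks like in this contrast. All 33 sarcomere transcripts fell along the diets in the linear test, as did 25 of 29 phototransduction and 66 of 69 respiratory chain transcripts. Their median differences between extremes and middles were 0.12, 0.01 and -0.01. Of the sarcomere transcripts 28 had a positive difference, 3 lay higher and 0 lower at an unadjusted p under 0.05, and DESeq2 called 1 as higher. Mhc, the myosin heavy chain of muscle, lay 1.06 higher in the 0.25 arm and 0.54 lower in the 0.70 arm on the log2 scale, which left a difference of 0.26 (SE 0.12). The rhodopsin ninaE (0.50 and -0.46, difference 0.02) and the ATP synthase subunit blw (0.38 and -0.32, difference 0.03) also had arms of opposite sign. The transcripts with the smallest linear p among those with an unadjusted p above 0.5 in the contrast were the synaptic vesicle protein nSyb and Ank2, which fell, and CG3609 and the maltase Mal-A6, which rose.

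The split of the variance describes these forms. Of the variance between diets, the contrast of extremes with middles held 15.5% over all tested transcripts, but 74.5% for the yolk proteins, 50.4% for the vesicle coats and 48.2% for the ER list. It held 19.5% for the gut proteases, 3.08% for the sarcomere and 1.96% for the respiratory chain. These shares are descriptions of the lists, with no test. The vesicle coat and ER lists were drawn up after the values of this contrast were seen, so high shares are built into them.

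**Figure D5:**
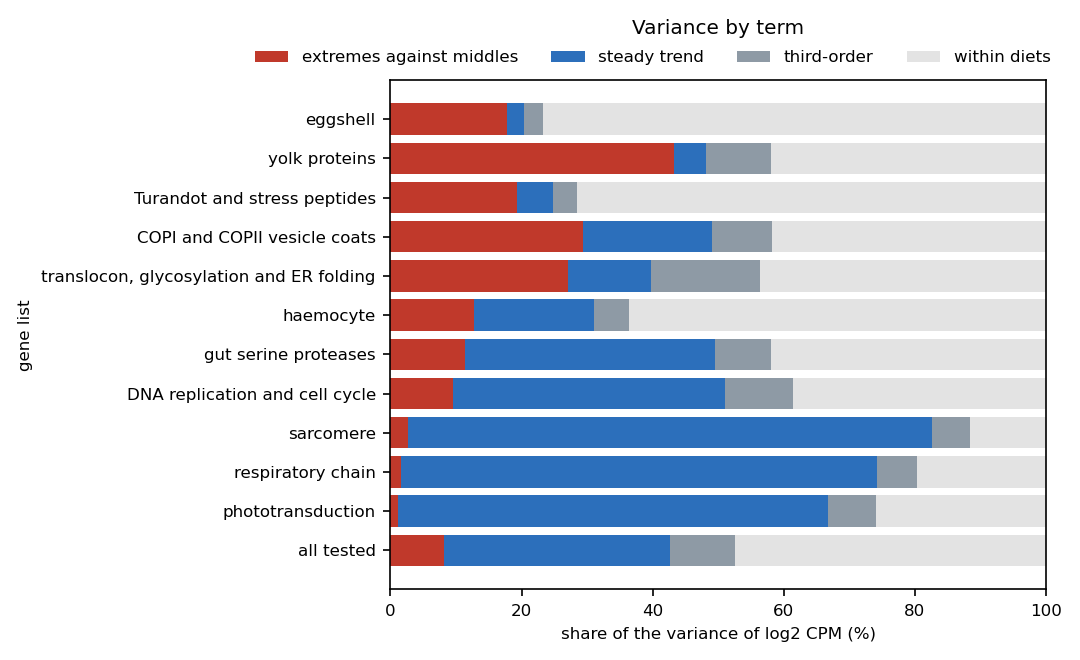
Share of the variance of log2 CPM in each gene list (percent), split into the contrast of extremes with middles (red), the steady trend (blue), the third-order term (grey) and differences within diets (light). The red part is 17.7% for eggshell, 43.3% for yolk proteins and 2.72% for the sarcomere, and 8.13% over all tested transcripts. The vesicle coat, ER and haemocyte lists were drawn up after the values were seen.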

How the data were processed

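Polyadenylated RNA of 12 female samples was sequenced, and the groups and replicate numbers were read from the sample labels. The deposited values are raw counts per transcript, which the authors made by trimming the reads, aligning them to dm6 with hisat2 and counting with Seqmonk. Whether counting used the strand is not given in the sources used here, and 45.9% of tested transcripts overlap another. The deposited values were not normalized. Counts were tested with edgeR 4.0.16 in R 4.3.3 (TMM, filterByExpr, quasi-likelihood test, 4 diets as groups), with Benjamini-Hochberg adjustment over 9928 transcripts. CPM used TMM-scaled totals, and log2 CPM a prior count of 2. Linear and third-order terms and both arms came from the same fit. The table holds 15448 transcripts, of which 2735 had no count. The contrast, lists and members were chosen with earlier results of these data known. The naming rule took the 2 most abundant members of a list with no called member, and for the steady trend the 2 smallest p in each direction. As no transcript passed, no others were named by it, and those of lists not described are left out. The replicates of a diet were separate pools of females. Whether these came from separate cultures is not given in the sources used here, and p-values measure the spread between these pools. Alternatives were DESeq2 1.42.0, limma 3.58.1 (voom), DESeq2's size factors or library size alone as scaling, no filter or at least 10 counts in every sample, a 1.5-fold minimum, an adjusted p for both arms, another prior count or unit variance for the variance split, a replicate block, 2 groups of 6, the ratio and its square, overlapping transcripts left out, and each sample left out. The steps were tested on simulated data.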

Additional observations from a re-analysis of the deposited data

How the results depend on the processing

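The count of 0 transcripts for the contrast became 52 with DESeq2, 5 without a filter on low counts and 7 with the replicate block, and of these 26, 2 and 2 were lower or higher in both arms. It was 0 in all 12 fits without a sample and in the other alternatives, limma's voom included. Same-numbered samples did not deviate together (r from -0.34 to 0.34, median -0.01) more than differently numbered ones (r from -0.40 to 0.44, median 0.01). With 3 samples per diet this cannot exclude a pairing by number. At an unadjusted p under 0.05, the 592 lower and 370 higher transcripts became 376 and 587 with scaling by library size alone, 279 and 174 with 2 groups of 6 samples, and 329 and 204 without overlapping transcripts (5372 tested), where 39 and 11 were lower and higher in both arms. Leaving out a sample gave 377 (sample 2 at 0.70) to 740 lower, 203 (sample 1 at 0.40) to 581 higher (sample 3 at 0.55), 38 (sample 3 at 0.25) to 99 (sample 2 at 0.40) lower in both arms and 8 (sample 1 at 0.70) to 25 higher in both arms. The steady trend had 2270 calls without overlapping transcripts and 1812 to 4207 without a sample. The third-order term had 6 calls, but 25 with DESeq2, 11 without a filter, 2 with at least 10 counts or the replicate block, 3 with limma and 0 to 6 without a sample. The contrast's share of variance was 9.04% at unit variance and 8.02% to 9.65% without a sample. The eggshell median stayed between -0.47 and -0.22. Apart from the settings whose construction reduces the samples or transcripts, the cause was not tested. The alternatives of the third-order term, limma for both arms and the trend, the trend without overlapping transcripts, and the share of variance without a sample were chosen after seeing the data.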

Other observations

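Some transcripts turned up and down along the diets in a way that neither the contrast nor the trend captures. The third-order term passed edgeR's test for 6 transcripts (0.0604%), among them the alpha-mannosidases CG9463, CG9465 and CG9466, together with CG8083, CG8093 and CG2962. The alpha-mannosidase list had negative differences in 6 of 6 members, against 48.9% of all tested transcripts, and 3 had an unadjusted p under 0.05. Those 3, LM408, CG5322 and CG9466, lay lower at the 0.70 end only. Their values were 0.13, 0.12 and 0.12 in the 0.25 arm and -0.75, -0.81 and -0.65 in the 0.70 arm. All 3 also fell along the diets in the linear test. CG9465 was negative in both arms (-0.27 and -0.26).

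The Turandot peptides TotA, TotM, TotC and TotX, secreted under stress, differed by -0.85, -0.70, -0.65 and -0.64, and 3 of them, TotM excepted, had an unadjusted p under 0.05. Socs36E, an intracellular JAK/STAT suppressor in the same list, differed by -0.03. TotA had 9.20 to 24.4 CPM at the extremes and 9.58 to 49.7 CPM in the middle diets, so the samples overlapped. Heat shock proteins had the opposite sign, with a median of 0.60 over 20 members, of which 15 were positive and 5 negative. The contrast held 8.61% of the variance of this list, less than the third-order term, and 68.6% lay within diets. The positive median therefore does not show a dip shared by both middle diets. At an unadjusted p under 0.05 Hsp70Aa lay higher and Hsp60 lower, and Hsp60, lower in both arms, was the member that DESeq2 called. Hsp70Aa ranged from 1.37 to 31.0 CPM at the extremes and from 0.258 to 16.4 CPM in the middle diets. Cytoplasmic ribosomal protein transcripts were negative in 78 of 84 members, against 48.9% of all tested transcripts, with a median of -0.05. Only 3 members had an unadjusted p under 0.05 and lay lower (3.57%, against 5.96% of all tested transcripts). Scaling by library size alone moved the median of all tested transcripts from 0.00 to 0.04.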
